A study of Mus musculus with 8 samples.

Results

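Mitochondrial transcript fragments were taken as the sequences of 18 to 40 nt that lie exactly, in the sense direction, in 1 of the 37 annotated transcripts of the mouse mitochondrial chromosome (chrM, GRCm38), which are 22 tRNAs, 2 rRNAs and 13 mRNAs. All 37 transcripts had at least 1 read, among 20358 genes with an exact sense match in the series. They gathered 163172 reads of 1212 distinct sequences. Within 18 to 40 nt the match rule used no level, length or 5′ base, so these could all be measured in that window. Of the 1212 sequences, 220 also matched an annotated transcript outside chrM, and they held 0.325% to 9.16% of the mitochondrial reads of a library.

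Small RNA (<200 nt) had been sequenced from male mPGCs of 3 embryonic stages (E12.5, E13.5, E15.5) and from SGET mPGCLCs on day 6 of culture (D6), giving 8 libraries, 2 for each group. The mPGCs carried the GOF18 reporter, an EGFP transgene under Pou5f1 regulatory sequence. The labels give their strain as C57BL/6J, the study's methods a mixed FVB/C57BL/6J background, and each mPGC library came from 2 pooled embryos of a separate litter, taken from genital ridges. Their sort is given as SSEA1 and CD61 in the labels and as EGFP in the methods. The SGET mPGCLCs (B6CBA/129, XY) were sorted as Stella-GFP-positive and Esg1-tdTomato-negative cells and stand for 1 cell line, so line, strain, reporter and culture cannot be told apart in any comparison with mPGCs. The labels do not say whether the 2 SGET libraries came from separate cultures, and p-values then measure only the spread between libraries. Libraries held 7447873 to 26552524 reads. The 10 miRNAs of pluripotent and early germ cells (the Mir290 and Mir302 clusters) had reads in every group, with a summed level of 31514 to 91914 rpm (reads scaled to a library total of 1e+06 reads) at E12.5, at E13.5 and in SGET mPGCLCs and of 2445 to 3147 rpm at E15.5. Mir202, which is made by gonadal somatic cells, was at 55.7 to 433 rpm in the mPGC libraries and had no read in SGET mPGCLCs, and 5 mesenchymal miRNAs were highest in SGET mPGCLCs, at 870 to 1657 rpm against 92.5 to 836 rpm in mPGCs. Blood miRNAs were at 0 to 42.8 rpm and the endothelial Mir126a at 0.0735 to 69.4 rpm. The part of such cells in the results was not tested.

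The mitochondrial genome is transcribed from both strands as long polycistronic RNAs. The tRNAs punctuate these RNAs, and their excision at both ends releases the rRNAs and mRNAs, after which a CCA trinucleotide is added to each tRNA 3′ end by an enzyme. The 2 rRNAs build the mitochondrial ribosome, and the 13 mRNAs encode subunits of the respiratory chain and ATP synthase. A small RNA library of germ cells holds fragments of these RNAs beside miRNAs and, in fetal male germ cells, piRNAs, which are guides of PIWI proteins with a 5′-U and a length near 27 nt.

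The sequences below lead the mitochondrial reads. The first set is the leading family, which starts at base 1 of mt-Rnr2 (16S rRNA, chrM:1094-2675, plus strand) and ends at different bases, and capitals mark the bases after the first 21.
mt-Rnr2, 23 nt: actaatcctagccctagccctAC
mt-Rnr2, 24 nt: actaatcctagccctagccctACA
mt-Rnr2, 25 nt: actaatcctagccctagccctACAC
mt-Rnr2, 26 nt: actaatcctagccctagccctACACA
The 25 nt sequence (chrM:1094-1118) had 1526 and 8176 reads in the E12.5 libraries, 6219 and 9179 in the E13.5 libraries, 856 and 5291 in the E15.5 libraries, and 2074 and 3888 in SGET mPGCLCs. The 24 nt sequence had 1580, 5717, 1087, 5449, 663, 25, 3531 and 3819 reads in the same order.

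The second set starts at base 1 of mt-Ts2, a serine tRNA (chrM:11613-11671, plus strand), the other gene start that was above the floor of 3 reads in all 8 libraries. Capitals mark the bases after the first 17.
mt-Ts2, 18 nt: aagaaagattgcaagaaC
mt-Ts2, 22 nt: aagaaagattgcaagaaCTGCT
mt-Ts2, 23 nt: aagaaagattgcaagaaCTGCTA
The 22 nt sequence (chrM:11613-11634) was found in 4 libraries, with 2268 reads in E12.5 replicate 2, 277 and 1276 reads in the E13.5 libraries, and 10 reads in E15.5 replicate 2.

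Few sequences were shared between libraries. Of the 1212 sequences, 1054 (87.0%) occurred in 1 library, 7 occurred in all 8, and 42 in both libraries of a group. Of the 844 start sites, 691 (81.9%) had reads in 1 library. Sequences found in 1 library alone held from 11.0% (E15.5 replicate 1) to 53.1% (SGET replicate 1) of the mitochondrial reads. E15.5 replicate 2 stood apart: of its 285 mitochondrial sequences, 248 had 1 read and 8 had 10 reads or more. Of those 248, 37 (14.9%) had at least 10 reads in another library. The same part of the single-read sequences was 11.2% to 30% in the other mPGC libraries, so this did not set the library apart. It was 0% in both SGET libraries. Whether the 37 were reads of E15.5 replicate 2 was not tested.

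The mitochondrial share of all reads was low in every library, and was lowest at E15.5. It was 0.113% and 0.306% in the E12.5 libraries, 0.105% and 0.176% in the E13.5 libraries, 0.0229% and 0.0422% in the E15.5 libraries, and 0.271% and 0.249% in SGET mPGCLCs. The 95% Wilson intervals, which cover counting error only since PCR copies were not removed, ran from 0.303% to 0.309% for the highest library and from 0.0221% to 0.0237% for the lowest, so the spread between replicates was far wider than counting error. The E15.5 libraries did not overlap any other group. The E12.5 libraries lay far apart, so that their range overlapped those of E13.5 and of SGET mPGCLCs. The group means were 0.210% ± 0.136, 0.140% ± 0.0504, 0.0326% ± 0.0136 and 0.260% ± 0.0156 (SD, n = 2).

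The share at E15.5 was 0.232 ± 0.128 of that at E13.5 (ratio of means with propagated SD; exact two-sided permutation p = 0.33, the smallest that 2 libraries against 2 allow), and 0.163 without E15.5 replicate 2. E13.5 was 0.669 ± 0.497 of E12.5 (exact permutation p = 0.67), and this ratio turned to 1.24 without E12.5 replicate 2. SGET mPGCLCs were at 1.24 ± 0.809 of E12.5 (exact permutation p = 1.0), which turned to 0.850 without E12.5 replicate 1, and at 1.85 ± 0.675 of E13.5, with no overlap (exact permutation p = 0.33). In a bulk library, fewer cells of a type and less RNA per cell cannot be told apart.

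The lower share at E15.5 depended on what it was set against. The 5′-U reads of 25 to 30 nt, the window that piRNAs fill, made 2.78% and 4.28% of the reads at E12.5, 7.03% and 11.3% in the E13.5 libraries, 60.9% and 62.5% in the E15.5 libraries, and 2.67% and 2.31% in SGET mPGCLCs. Without those reads in the total, the E15.5 to E13.5 ratio was 0.550 ± 0.326. Set against snoRNA, snRNA or miRNA reads it was above 1. The libraries held 92.7 and 151 mitochondrial reads per 1000 snoRNA reads in the E12.5 libraries, 96.6 and 93.3 in the E13.5 libraries, 104 and 118 in the E15.5 libraries, and 148 and 134 in SGET mPGCLCs. This measure thus ranged far less between libraries than the share of all reads. The E15.5 to E13.5 ratio was 1.17 ± 0.110 per snoRNA read, 1.17 ± 0.413 per snRNA read, where the groups overlapped, and 2.14 ± 1.12 per miRNA read. Per read of nuclear protein-coding genes it was 0.195 ± 0.0755, and per nuclear rRNA read 0.484 ± 0.234, with no overlap in either. SGET mPGCLCs stayed above E13.5 against each of these 5 classes, at 1.48 ± 0.108 per snoRNA read, 2.14 ± 0.250 per snRNA read, 1.79 ± 0.660 per miRNA read, 5.64 ± 1.30 per protein-coding read and 3.30 ± 1.86 per nuclear rRNA read, with no overlap between the 2 groups (exact permutation p = 0.33 each).

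**Figure D1:**
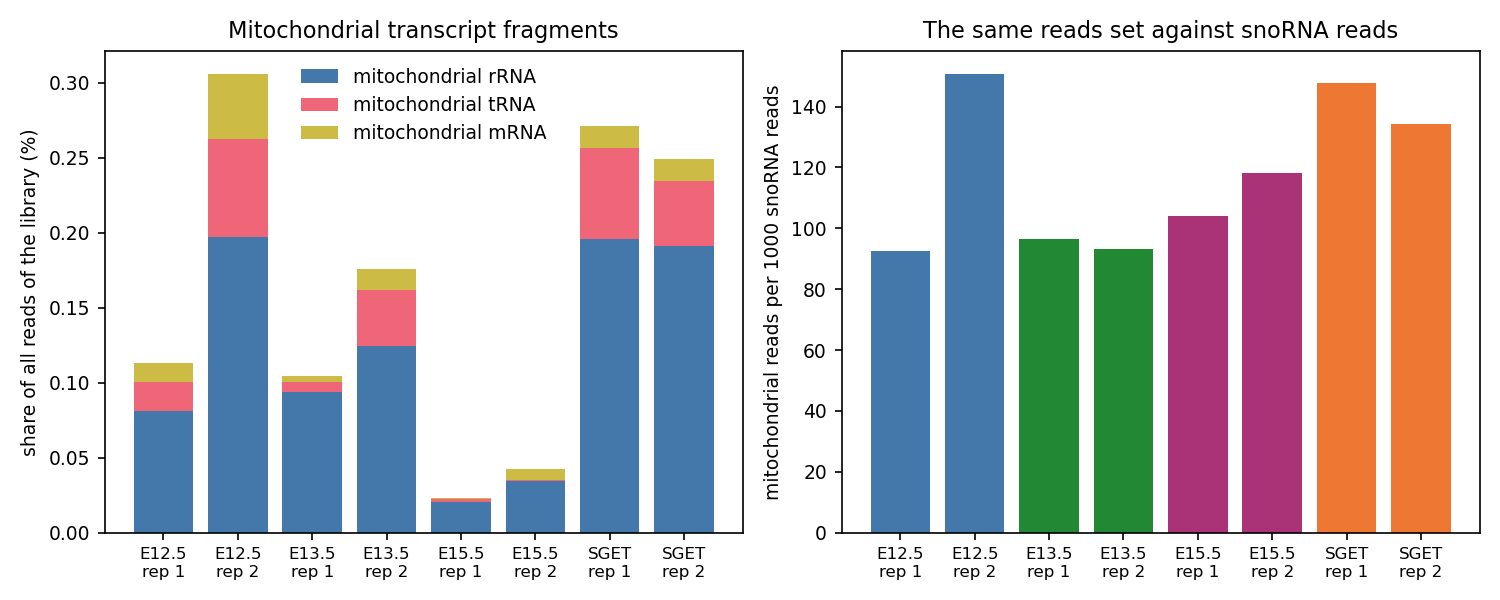
Mitochondrial reads in each of the 8 libraries, as a share of all reads in percent with the 3 RNA classes stacked (left), and per 1000 snoRNA reads (right). Bars are single libraries. The E15.5 libraries were lowest in the left panel, at 0.0229% and 0.0422%, and stood at 104 and 118 reads per 1000 snoRNA reads in the right panel, between the lowest (92.7) and the highest (151) E12.5 library.

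The rRNAs made most of the mitochondrial reads in every library. They held 71.4% and 64.5% of them at E12.5, 89.7% and 70.7% in the E13.5 libraries, 90.5% and 82.2% in the E15.5 libraries, and 72.3% and 76.8% in SGET mPGCLCs. The tRNAs held 17.4%, 21.3%, 6.38%, 21.3%, 7.31%, 1.23%, 22.2% and 17.5% in the same order, and the mRNAs 11.2%, 14.2%, 3.902%, 8.01%, 2.15%, 16.6%, 5.53% and 5.74%. The groups overlapped in their tRNA part in each of the 4 comparisons (E13.5 minus E12.5, −5.49 percentage points; E15.5 minus E13.5, −9.58; SGET minus E12.5, 0.511; SGET minus E13.5, 6.00; exact permutation p from 0.67 to 1.0).

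mt-Rnr2 was the leading member in all 8 libraries, and most of its reads had 1 start. It was at 754 and 1682 rpm in the E12.5 libraries, 899.5 and 1189 rpm in the E13.5 libraries, 207 and 297 rpm in the E15.5 libraries, and 1545 and 1671 rpm in SGET mPGCLCs. The SGET libraries were close to the higher E12.5 library, and the E15.5 libraries were below all others. Reads that start at base 1 made 91.7% and 88.2% of the mt-Rnr2 reads at E12.5, 98.9% and 93.2% in the E13.5 libraries, 96.3% and 99.2% in the E15.5 libraries, and 71.9% and 89.4% in SGET mPGCLCs. They alone were 40.99% to 87.0% of the mitochondrial reads of a library. Their commonest length was 24 or 25 nt in each library, and 69.7% ± 13.3 to 72.7% ± 1.09 of the family was 24 to 26 nt long in the group means (SD, n = 2). The 3′ end of the family thus varied over a few bases.

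Outside this family, mt-Rnr2 reads were highest in SGET replicate 1. SGET mPGCLCs were at 433 and 177 rpm against 62.6 and 198 rpm in the E12.5 libraries, 9.55 and 81.0 rpm in the E13.5 libraries and 7.65 and 2.37 rpm at E15.5. The E12.5 and SGET ranges overlapped. mt-Rnr2 passed the test of no comparison in the quasi-likelihood test of edgeR, with p-values adjusted over all genes by Benjamini-Hochberg. For E15.5 minus E13.5 its log2 fold change was −2.05 ± 0.82 (SE; edgeR, adjusted p = 0.305), and this became 1.18 with the size factors of DESeq2 (adjusted p = 0.779). The other 3 comparisons gave −0.22 ± 0.79 (E13.5 minus E12.5), 0.40 ± 0.79 (SGET minus E12.5) and 0.62 ± 0.79 (SGET minus E13.5), with edgeR adjusted p from 0.597 to 1.0, and the first 2 of them change sign when 1 E12.5 library is left out.

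mt-Rnr1, the 12S rRNA (chrM:70-1024, plus strand), was at 55.5 and 292 rpm in the E12.5 libraries, 39.7 and 54.6 rpm in the E13.5 libraries, 0.368 and 49.5 rpm in the E15.5 libraries, and 415 and 240 rpm in SGET mPGCLCs. It was more spread than mt-Rnr2. In E15.5 replicate 2, 1 sequence made 95.8% of its 1315 reads, and in E13.5 replicate 1 another made 99.0% of 478. Its base 1 start, shown here because it is the commonest start of this gene (3550 of 13781 reads), was led by a 25 nt sequence.
mt-Rnr1, 25 nt: aaaggtttggtcctggccttataat
This sequence (chrM:70-94) had 50 and 1284 reads in the E12.5 libraries, 102 reads in SGET replicate 1 and at most 1 read in each of the other 5 libraries.

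**Figure D2:**
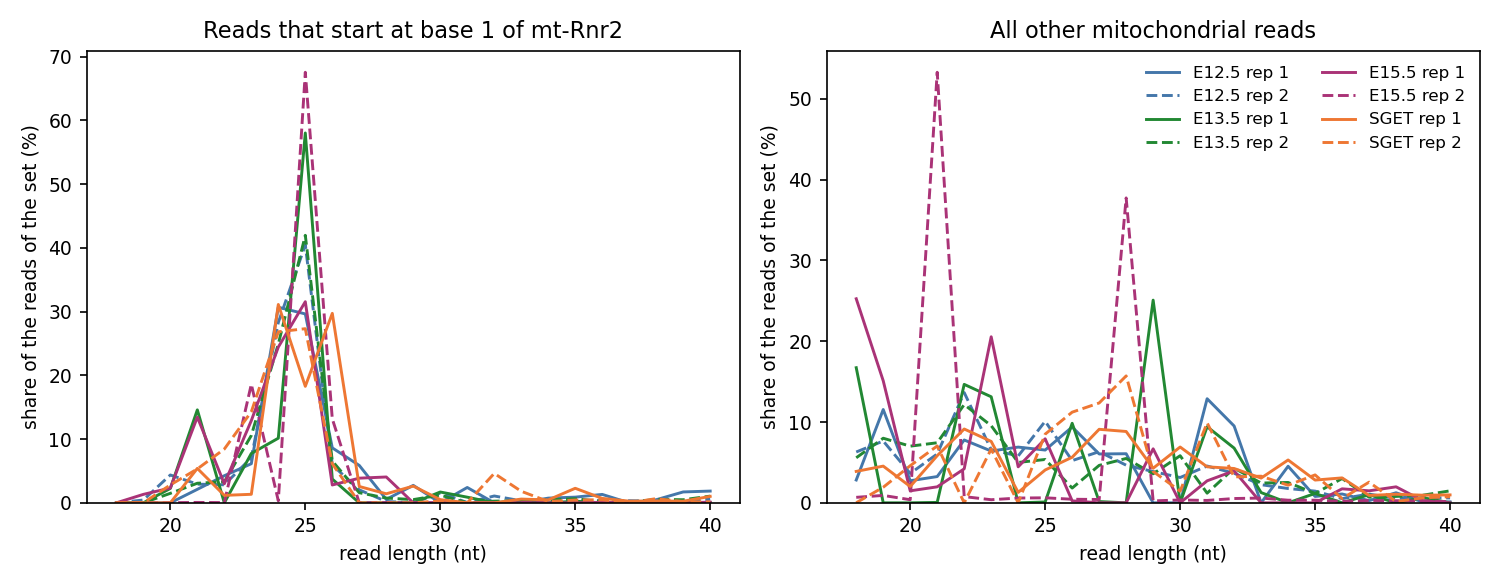
Length of the reads that start at base 1 of mt-Rnr2 (left) and of all other mitochondrial reads (right), as the share of each set in percent by length in nt, with 1 line per library (solid, replicate 1; dashed, replicate 2). The left profiles peak at 24 or 25 nt in all 8 libraries. In the right panel, the peaks of E15.5 replicate 2 at 21 and 28 nt are mostly 1 sequence each of mt-Cytb and mt-Rnr1.

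The tRNAs were more uneven than the rRNAs. Only mt-Ts2, mt-Tq (glutamine) and mt-Tl1 (a leucine tRNA) of the 22 had reads in all 8 libraries, and 13 had reads in 5 or fewer. Per kb of transcript, mean levels over the libraries ran from 0.0905 rpm per kb for mt-Td, with 1 read in the series, to 1456 rpm per kb for mt-Ts2, with a median of 73.8. On the same scale mt-Tp was at 926, mt-Rnr2 at 651, mt-Tv at 482 and mt-Te at 343 rpm per kb.

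mt-Ts2 had the highest mean level per kb of the 37 members, through its second replicates at E12.5 and E13.5. It was at 24.03 and 376 rpm in the E12.5 libraries, 23 and 224 rpm in the E13.5 libraries, 1.62 and 1.88 rpm in the E15.5 libraries, and 6.66 and 29.9 rpm in SGET mPGCLCs. The E15.5 libraries lay below all others, while the replicates of E12.5 and of E13.5 lay far apart. For E15.5 minus E13.5 the log2 fold change was −6.13 ± 2.14 (edgeR, adjusted p = 0.154). Of its 10426 reads, 92.2% started at base 1.

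mt-Tp, a proline tRNA of the minus strand (chrM:15356-15422), was the 1 member that passed the test in any comparison. It had 127 and 2 reads in the E12.5 libraries, 0 and 1 in the E13.5 libraries, 40 and 10 in the E15.5 libraries, and 2981 and 1751 in SGET mPGCLCs. Both SGET libraries were above all mPGC libraries. SGET minus E13.5 gave a log2 fold change of 12.64 ± 3.13 (edgeR, adjusted p = 0.00768). A fitted fold change against 1 read depends on the prior count, and the ratio of the pooled reads (4732 against 1) was 7619 with an exact 95% counting interval from 1367 to 301011. With 3′ ends that carry an added C, CC or CCA (tailed 3′ ends) counted too, mt-Tp had 90 reads at E13.5. It still had 4732 in SGET mPGCLCs, a ratio of 84.7. After mt-Tp the whole CCA makes 3 mismatches to chrM, and the authors' alignment allowed 2. Such a read could be kept only where it also fit another place, so the mt-Tp ratios with tailed 3′ ends are uncertain. The call was lost with TMM scaling (adjusted p = 0.0927), with only the 2 groups in the fit (0.0643) and without any 1 of the 4 libraries (0.0884 to 0.381), while the log2 fold change stayed between 11.97 and 14.63. It was kept with the replicate number as a block (12.27, adjusted p = 0.0328). SGET minus E12.5 gave 4.79 ± 2.25 (edgeR, adjusted p = 0.629). The pooled ratio there was 39.1 (exact 95% counting interval 32.9 to 47.0), or 14.8 with tailed 3′ ends. Counting intervals of pooled reads leave out the spread between libraries, which was wide: the E12.5 libraries were at 17.1 and 0.147 rpm.

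Of the 9 members on the minus strand, mt-Te (glutamate tRNA) and mt-Nd6, the minus-strand subunit of complex I, were also higher in SGET mPGCLCs than in most mPGC libraries by exact reads. The 6 besides these and mt-Tp were mixed. mt-Ts1, a serine tRNA, had no read in SGET mPGCLCs and was at 9.94 and 24.5 rpm at E12.5, against 0 and 16.7 rpm for E13.5. mt-Ty, mt-Tc, mt-Ta and mt-Tn had at most 8.13 rpm in an SGET library, and mt-Tq, at 24.5 and 11.1 rpm there, lay within the mPGC range of 0.0830 to 38.9 rpm. For mt-Te and mt-Nd6, the sequence of at most 30 nt with the highest mean share over the libraries is shown.
mt-Te, 25 nt: ttggtcgcagttgaatgctgtgtag
mt-Nd6, 21 nt: atgatggtagtagctgggtga
The first (chrM:14076-14100) had 264 reads, all in SGET replicate 2, and the second (chrM:13600-13620) had 438, all in SGET replicate 1. mt-Te was at 9.94 and 19.02 rpm in the E12.5 libraries, 0 and 6.94 rpm in the E13.5 libraries, 0 and 0.565 rpm in the E15.5 libraries, and 108 and 44.9 rpm in SGET mPGCLCs. With tailed 3′ ends, E13.5 replicate 1 was at 46.9 rpm, above SGET replicate 2. Its 565 tailed mt-Te reads all carried the whole CCA, which makes 3 mismatches to chrM there. The authors' alignment allowed 2, so whether these are mt-Te reads is uncertain. mt-Nd6 by exact reads was at 7.65, 4.48, 0, 15.51, 0, 0.0753, 42.9 and 10.9 rpm in the same order of libraries, so its second SGET library was below an E13.5 library. Minus-strand members together made 7.37% and 2.91% of the mitochondrial reads at E12.5, 0.00793% and 3.63% in the E13.5 libraries, 3.46% and 0.401% in the E15.5 libraries, and 17.8% and 10.1% in SGET mPGCLCs. The SGET libraries did not overlap the others (exact permutation p = 0.33 against E12.5 and against E13.5), and this rested on mt-Tp. Without it the minus-strand part was 7.03% and 2.69% for the SGET libraries, 5.86% and 2.90% at E12.5, against 0.00793% and 3.63% for E13.5, and the groups overlapped.

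The 5′-end part of all exact tRNA reads was lowest in SGET mPGCLCs. Among tRNA reads, those that start within 2 nt of the 5′ end made 56.2% and 78.5% in the E12.5 libraries, 96.8% and 81.6% in the E13.5 libraries, 25.4% and 63.0% in the E15.5 libraries, and 10.4% and 11.2% in SGET mPGCLCs. Both SGET libraries lay below every mPGC library. The tRNAs that gave the reads enter this measure, since 97.8% of mt-Ts2 reads and 0.550% of mt-Tp reads were 5′-end reads. Without mt-Ts2 and mt-Tp the part was 55.5% and 54.8% in the E12.5 libraries, 95.1% and 54.3% in the E13.5 libraries, 5.42% and 47.4% in the E15.5 libraries, and 18.6% and 8.68% in SGET mPGCLCs, which then lay below all E12.5 and E13.5 libraries but not below E15.5 replicate 1. E15.5 rested on 228 and 138 tRNA reads. The commonest start was base 1 for 8 of the 22 tRNAs, both rRNAs and 3 of the 13 mRNAs. For mt-Tp it was base 35, which held 1692 of its 4912 reads. mt-Tv was at 30.6 and 54.1 rpm in the E12.5 libraries, 26.3 and 23.9 rpm in the E13.5 libraries, 0.147 and 0.414 rpm in the E15.5 libraries, and 0 and 130 rpm in SGET mPGCLCs, by exact reads. With tailed reads it was at 173 and 555 rpm in the E12.5 libraries, 196 and 263 rpm in the E13.5 libraries, 17.8 and 44.3 rpm in the E15.5 libraries, and 61.3 and 151 rpm in SGET mPGCLCs, between the E15.5 and the other mPGC libraries. mt-Tv (valine tRNA, chrM:1025-1093, plus strand) had its commonest start at base 30, and the leading sequence of that start, printed below, had 627 reads in SGET replicate 2, 1 read in E13.5 replicate 1 and none elsewhere.
mt-Tv, 27 nt: gcctacacccagaagatttcatgacca

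Reads of mature tRNA 3′ ends fall outside an exact match, because the CCA is not encoded. When sequences that end in an annotated tRNA 3′ end plus C, CC or CCA and match no annotated transcript were collected, 24645 reads of 118 sequences were found, of which 97.6% carried the whole CCA. Per 100 exact tRNA reads there were 85.0 and 117 such reads at E12.5, 339 and 99.4 in the E13.5 libraries, 131 and 976 in the E15.5 libraries, and 17.2 and 4.96 in SGET mPGCLCs. Both SGET libraries again lay below every mPGC library. In levels they were at 168 and 764 rpm in the E12.5 libraries, 226 and 373 rpm in the E13.5 libraries, 21.9 and 50.7 rpm in the E15.5 libraries, and 104 and 21.6 rpm in SGET mPGCLCs, so that on this scale E15.5 and SGET overlapped. mt-Tv held 68.4% of them, from 59.1% to 95.1% of a library, and 19 of the 22 tRNAs had at least 1. mt-Tp had 17 and 195 tailed reads in the E12.5 libraries, 0 and 89 in the E13.5 libraries, 1 and 2 in the E15.5 libraries and none in SGET mPGCLCs. The leading sequence is shown with the added bases in capitals.
mt-Tv, 23 nt: atgaccaatgaacactctgaCCA
It had 183 and 826 reads in the E12.5 libraries, 630 and 692 in the E13.5 libraries, 0 and 2 in the E15.5 libraries and none in SGET mPGCLCs.

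The authors' alignment allowed 2 mismatches, which bears on which tails could remain. After the mt-Tv 3′ end the next chrM bases differ from CCA at 2 positions, so its tail was within that limit. Of the 24050 reads with the whole CCA, 19762 came from the 6 tRNAs whose tail makes at most 2 mismatches. Another 1765 came from the 7 tRNAs where it makes 3. mt-Tp and mt-Te are among these 7, so their tailed reads are of uncertain origin. The other 2523 came from the 9 tRNAs whose next bases lie outside annotated genes and were not known here. The levels of tailed reads can therefore not be compared between tRNAs. Nuclear tRNAs are not in the annotation used, and a short tailed read may also fit one of them.

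**Figure D3:**
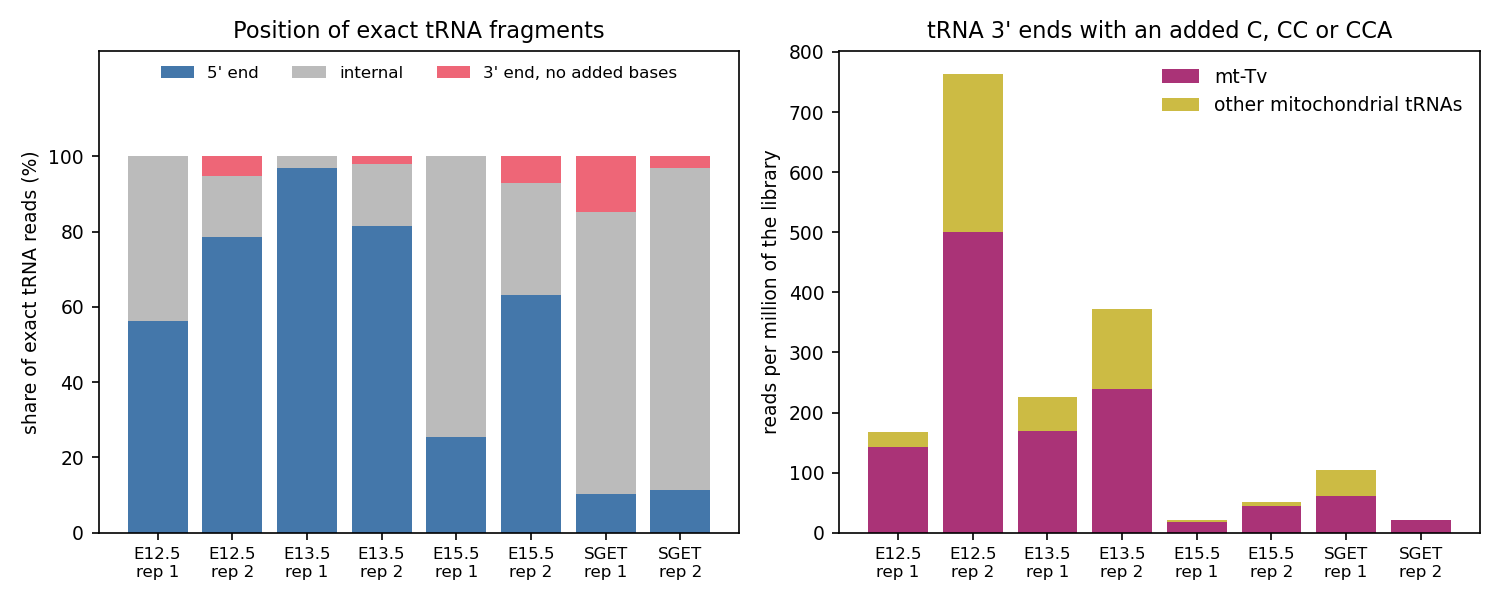
Position of the exact mitochondrial tRNA reads in percent of those reads (left) and level of tRNA 3′ ends with an added C, CC or CCA in rpm (right), with 1 bar per library. 5′-end reads made 10.4% and 11.2% in the SGET libraries and at least 25.4% in each mPGC library, and mt-Tv made most of the tailed reads in all 8 libraries.

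The mRNAs had the lowest median level per length of the 3 classes. Their mean levels ran from 2.39 to 40.7 rpm per kb with a median of 12.47, and the highest was mt-Nd4l, a complex I subunit, of whose 1246 reads 1013 started at base 1. mt-Co1, the catalytic subunit of cytochrome c oxidase, was at 48.5 and 93.6 rpm in the E12.5 libraries, 0 and 39.8 rpm in the E13.5 libraries, 0.515 and 1.05 rpm in the E15.5 libraries, and 4.51 and 32.4 rpm in SGET mPGCLCs. Its leading sequence had 270 reads, all in SGET replicate 2.
mt-Co1, 21 nt: gagcgggaatagtgggtactg
It lies at chrM:5401-5421. Of the 2811 mt-Co1 reads, 2030 were of sequences that also match a transcript outside chrM, and for mt-Co2, mt-Co3, mt-Atp6 and mt-Nd4l this held for every read. These levels are therefore uncertain between chrM and the other transcripts. mt-Cytb, the cytochrome b of complex III (chrM:14145-15288, plus strand), was at 17.9 and 39.4 rpm in the E12.5 libraries, 10.5 and 24.4 rpm in the E13.5 libraries, 3.53 and 67.5 rpm in the E15.5 libraries, and 8.91 and 0.315 rpm in SGET mPGCLCs. A single sequence made 1786 of the 1792 mt-Cytb reads of E15.5 replicate 2, and it is shown because it set the mRNA part of that library.
mt-Cytb, 21 nt: caaatatcattctgaggtgcc
It had 1 read in E12.5 replicate 2 and none in the other 6 libraries.

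**Figure D4:**
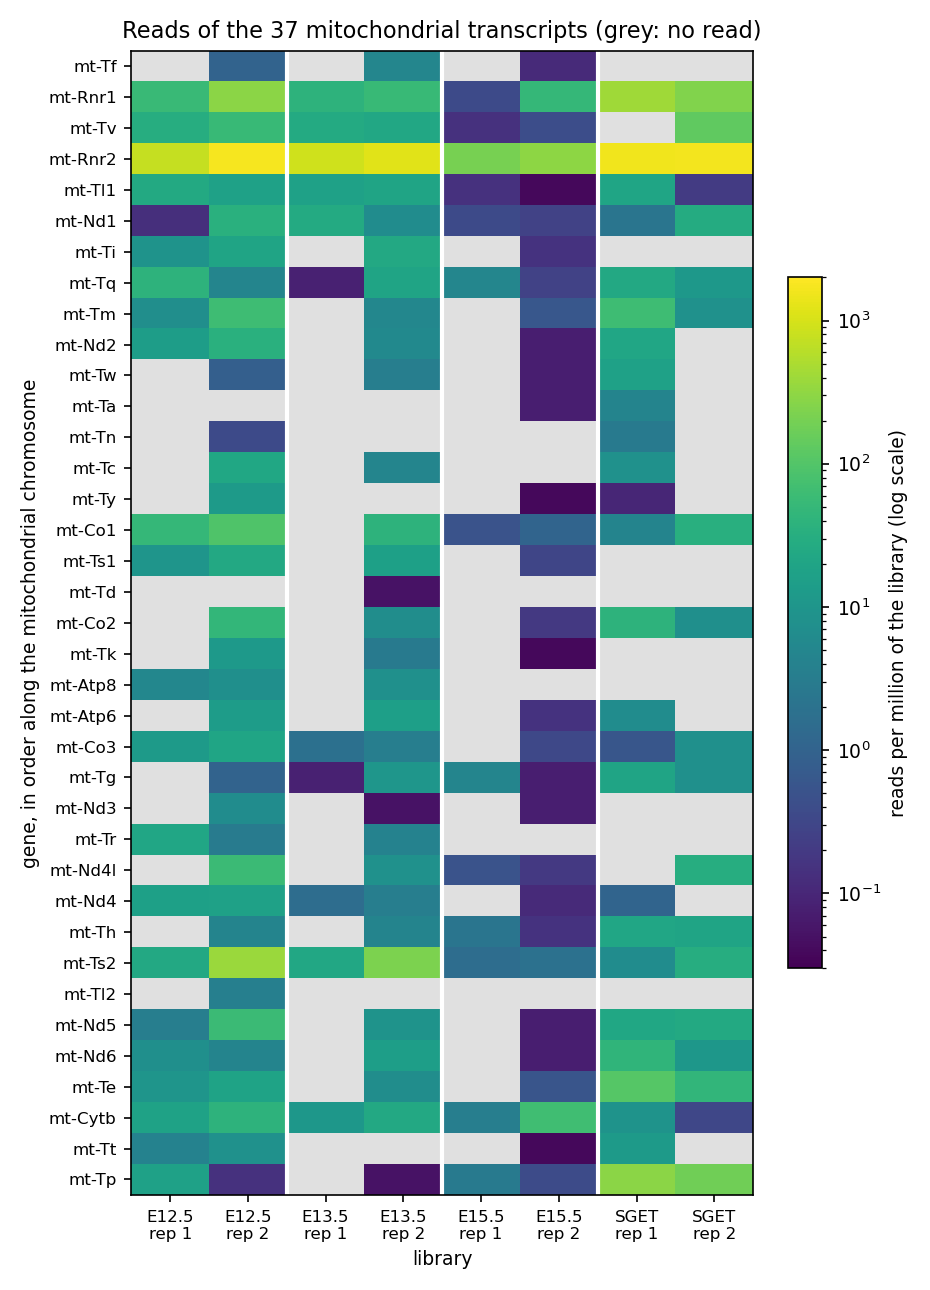
Level of each of the 37 mitochondrial transcripts (rows, in chromosome order) in each of the 8 libraries (columns), in rpm on a log colour scale, with grey where a library had no read. mt-Rnr2 was the brightest row throughout, mt-Tp was bright in both SGET libraries, and 7 of the 37 rows have no grey cell.

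Mitochondrial reads were mostly 5′-A reads, the 5′ base of the mt-Rnr2 family, and few had the 5′-U and length of piRNAs. The mean length was 25.4 ± 0.65 nt at E12.5, 24.8 ± 0.40 nt at E13.5, 24.2 ± 0.56 nt at E15.5 and 26.1 ± 0.51 nt in SGET mPGCLCs (SD, n = 2), whereas for all reads of 18 to 40 nt it was 22.5 ± 0.19, 22.9 ± 0.94, 26.7 ± 0.50 and 21.96 ± 0.044 nt. A 5′-A was found on 79.0% ± 1.90, 87.5% ± 4.40, 86.0% ± 4.73 and 71.6% ± 7.58 of mitochondrial reads in the same order of groups. A 5′-U was found on 10.01% ± 0.415, 4.47% ± 2.37, 3.53% ± 4.08 and 13.7% ± 0.382 of them. Reads of 26 to 29 nt with a 5′-U made 0% and 0.161% of the mitochondrial reads at E15.5, beside 53.7% and 53.5% of all reads of 18 to 40 nt in those libraries. In SGET mPGCLCs they made 4.71% and 6.03% of the mitochondrial reads, beside 2.49% and 1.63% of all reads of 18 to 40 nt. Among tRNA reads this set made 9.99% and 1.47% at E12.5, against 3.68% and 29.5% for the SGET libraries.

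In the test over all genes, 31 of the 37 members were among the 9479 genes that passed the filter on low counts. For E13.5 minus E12.5, edgeR called 0 members higher, beside 0.264% of all genes tested, and 0 lower, beside 0.0%. At an unadjusted p under 0.05 there were 0 and 1 members, beside 4.56% and 0.200% of all genes. DESeq2 called 0, beside 12.9% higher and 1.18% lower of the genes to which it gave an adjusted p. The median log2 fold change of the members was −1.11, and that of all genes 1.05. For E15.5 minus E13.5, 0 members were called higher (0.454% of all genes) and 0 lower (1.62%). With an unadjusted p under 0.05 there were 1 and 3, beside 3.71% and 4.26% of all genes. DESeq2 called mt-Tp higher, beside 14.3% of the genes to which it gave an adjusted p. The pooled mt-Tp ratio was 39.6 by exact reads and 0.466 with tailed 3′ ends, which are uncertain for mt-Tp. The medians were −5.18 for the members and −0.32 for all genes, and 28 of the 31 members were lower. Scaling weighed on this: the members' fold changes moved up by a median of 1.88 with TMM, 1.17 with a library size without 5′-U reads of 25 to 30 nt and 3.61 with DESeq2, after which 25, 25 and 20 of the 31 were still lower.

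For SGET minus E12.5, edgeR called 0 members higher (0.0844% of all genes) and 0 lower (0.306%). With an unadjusted p under 0.05 there were 1 and 0, beside 0.781% and 5.21% of all genes. DESeq2 called 0, beside 1.22% higher and 9.71% lower of the genes to which it gave an adjusted p. The medians were −0.92 for the members and −2.06 for all genes. For SGET minus E13.5, 1 member, mt-Tp, was called higher (0.116% of all genes) and 0 lower (1.34%). No other member had an unadjusted p under 0.05, beside 0.591% of all genes higher and 11.1% lower. DESeq2 called mt-Tp alone, beside 0.811% higher and 29.1% lower of the genes to which it gave an adjusted p. The medians were 0.80 for the members and −7.43 for all genes, with 18 of the 31 members higher. The comparisons share libraries with each other, E13.5 entering 3 of the 4. The common dispersion of the fit was 4.93. In simulated data where all genes had that dispersion, no 16-fold change was recovered for SGET minus E12.5. The fit itself let the spread differ between genes and did call genes in that comparison. Its SE for the members there ran from 0.79 (mt-Rnr2) to 7.25 (mt-Tk). A member with a large SE may therefore still differ by a large factor without a call.

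Fragments of nuclear genes for oxidative phosphorylation and for mitochondrial gene expression were read beside those of the mitochondrial mRNAs, with no test of the difference. Of a list of 52 nuclear genes for oxidative phosphorylation, 48 had reads and 39 were tested. Their summed level was 121 and 88.1 rpm in the E12.5 libraries, 509.6 and 842 rpm in the E13.5 libraries, 716 and 597 rpm in the E15.5 libraries, and 9.79 and 0 rpm in SGET mPGCLCs, whereas fragments of the mitochondrial mRNAs were at 126 and 435 rpm, 40.9 and 141 rpm, 4.93 and 70.1 rpm, and 150 and 143 rpm. The nuclear list was thus higher than the mitochondrial mRNAs in both E13.5 and both E15.5 libraries. It was lower in both E12.5 and both SGET libraries, though close in E12.5 replicate 1 (121 against 126 rpm). Of its 39 tested genes, edgeR called 1, Atp5b, a subunit of ATP synthase, lower in SGET than in E13.5, beside 1.34% of all genes tested. In the other 3 comparisons it called 0 in either direction, beside at most 1.62% of all genes in a direction. At an unadjusted p under 0.05 there were 4 higher at E13.5 than at E12.5, none between E15.5 and E13.5, 3 lower in SGET than at E12.5 and 10 lower in SGET than at E13.5, beside 4.56%, 5.21% and 11.1% of all genes for the 3 comparisons with such members. DESeq2 called 5, 0, 7 and 17 in those directions, beside 12.9% (higher at E13.5), 9.71% (lower in SGET than at E12.5) and 29.1% (lower in SGET than at E13.5) of the genes to which it gave an adjusted p. Of a list of 21 nuclear genes for mitochondrial gene expression, 19 had reads and 12 were tested. Their summed levels were 300 and 334 rpm, 265 and 480 rpm, 175 and 249 rpm, and 313 and 347 rpm, lowest at E15.5. The list includes the RNA genes Rmrp and Rpph1, and the part of single genes in the sums was not examined. For SGET minus E12.5 the median log2 fold change of the 12 was −6.75 though the sums were close, so the sums do not follow the median gene. edgeR called 0 of the 12 in any comparison, beside at most 1.62% of all genes in a direction. At an unadjusted p under 0.05 there were 0, beside at most 11.1% of all genes in a direction. DESeq2 called 1 higher at E13.5 than at E12.5, beside 12.9% of genes, and 2 lower in SGET than at E13.5, beside 29.1%.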

How the data were processed

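Per the study's methods, adapters and the 4 random bases at each read end were removed with cutadapt 3.2, reads were aligned to GRCm38 with STAR 2.5.3a end to end with up to 2 mismatches and up to 100 places, and 1 place was kept at random. The deposited values are raw counts per distinct sequence and library, collapsed by the authors and not normalized. The random bases were not used as molecular identifiers, so PCR copies are in the counts. Deposited totals were 7447873 to 26552524 reads per library. A count of 0 allows a share of up to 1.13e-05% to 4.03e-05%.

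Each sequence of 18 to 40 nt was matched exactly, in sense, to GENCODE transcripts, and a sequence that fits several genes counts for each. Shares and ratios were compared with exact two-sided permutation tests. Genes were tested with edgeR 4.0.16 (quasi-likelihood, all 4 groups in one fit, library size set to the file total, filterByExpr, Benjamini-Hochberg over 9479 genes, threshold 0.05). DESeq2 1.42.0 was an alternative. The fit was tested on simulated data in which all genes had the same dispersion. For SGET minus E12.5, 65.5% of 4-fold and 98.5% of 16-fold changes were recovered at a dispersion of 0.1, and none at 4.93. The text names both rRNAs, the 8 members with the highest mean share, members past the threshold and leading sequences, and others (mt-Nd6, mt-Nd4l, mt-Co2, mt-Co3, mt-Atp6, mt-Tq, mt-Tl1, mt-Td, mt-Ts1, mt-Ty, mt-Tc, mt-Ta, mt-Tn) were chosen after their values were seen. The members, gene lists and marker miRNAs were chosen with earlier results of these data known. The snoRNA and miRNA denominators, the breakdown of tailed reads, levels with tailed reads, and values without mt-Tp or mt-Ts2 were added after seeing the data. The leading mt-Tp sequences are not reported here.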

Additional observations from a re-analysis of the deposited data

Results flagged for a closer look

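Exact sense matches of 15 to 17 and 41 to 43 nt made 0.0167% of all reads of the series (18779 reads of 756 sequences). Besides these, reads outside the match rule were found in 4 sets, each above the limit that a count of 0 allows. There were no control samples. tRNA 3′ ends with an added C, CC or CCA made 0.0219% of all reads of the series, and their values stand beside those of the tRNAs. Sequences with no exact match to an annotated transcript and 1 mismatch to a chrM transcript made 0.0199%, with 22386 reads of 1895 sequences. In 50.4% of these reads the mismatch was the last base, and 30.9% were of the mt-Rnr2 family at base 1. Antisense sequences made 0.00882% (9948 reads of 192 sequences), and the most abundant, antisense to mt-Co1, had all of its 1415 reads in E15.5 replicate 2. Sequences across the junction of neighbouring genes made 0.00101% (1137 reads of 21 sequences), among which 1 sequence that starts 1 base before mt-Rnr2, in mt-Tv, had 296 of its 297 reads in SGET replicate 2. All 4 sets had reads in all 8 libraries. Groups of 2 libraries are too small for a test of single outlying libraries.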

How the results depend on the processing

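The direction of the share of all reads held for SGET over E13.5 under all 20 alternatives. For E15.5 over E13.5 (0.232) it turned to 1.31 with reads of 21 to 23 nt as the total, 1.17 with snoRNA reads and 2.14 with miRNA reads. For SGET over E12.5 (1.24) it turned to 0.595 with distinct sequences, and leaving out 1 library gave 0.850 to 2.29. For E13.5 over E12.5 (0.669) leaving out 1 library gave 0.459 to 1.24. The tRNA part had no stable direction. For E13.5 minus E12.5 (−5.49 percentage points) it was 7.10 without the base 1 reads of mt-Rnr2 and −13.0 to 1.98 without 1 library. For E15.5 minus E13.5 (−9.58) it was 3.65 with distinct sequences. For SGET minus E12.5 (0.511) it was −10.9 with tailed reads added, −14.2 at 18 to 24 nt, −0.424 at 15 to 43 nt, −0.753 without the top sequence of each library, −2.30 without the base 1 reads, and −1.83 to 2.85 without 1 library. For SGET minus E13.5 (6.00) it was −7.41 with tailed reads, −9.68 at 18 to 24 nt, −9.39 without the base 1 reads, and −1.47 to 13.47 without 1 library. Fewer reads enter by construction in the settings that drop sequences, and otherwise the cause was not tested.

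Members called for SGET minus E13.5 (1) were 0 with TMM, 0 with only the 2 groups and 0 without any 1 library, and for E15.5 minus E13.5 (0) they were 1 with DESeq2. Sign changes of single genes that passed no test were as follows: mt-Rnr2 ran from −0.69 to 0.47 without 1 library (E13.5 minus E12.5), from −0.065 to 1.09 without 1 library (SGET minus E12.5) and turned to 1.18 (E15.5 minus E13.5, DESeq2), mt-Ts2 for E13.5 minus E12.5 ran from −3.12 to 2.36 without 1 library, and mt-Rnr1 for E15.5 minus E13.5 turned to 1.09 with TMM, 0.35 with the library size without 5′-U reads, 2.34 with DESeq2 and from −6.96 to 0.071 without 1 library.

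Over single genes, same-numbered libraries did not deviate together (correlations of 0.0172, −0.0741, 0.0499 and −0.0304). The spread of single genes was wide, so this cannot decide whether the numbers pair libraries. At each mPGC stage, replicate 2 had the higher mitochondrial share (E12.5, 0.306% against 0.113%; E13.5, 0.176% against 0.105%; E15.5, 0.0422% against 0.0229%). It also had more reads and more distinct mitochondrial sequences. In SGET mPGCLCs, replicate 1 was higher in all of these, with a share of 0.271% against 0.249%. A shared batch was not tested. With the replicate block, 0, 0, 0 and 1 members were called in the 4 comparisons, and the block, as the geometric mean of same-numbered ratios, gave shares of 0.729, 0.229, 1.395 and 1.91.

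Removing sequences with an exact copy in the nuclear genome was not run, since no nuclear genome sequence was used here. Antisense and junction reads were searched on chrM rebuilt from its genes, without the control region. With 2 libraries per group no exact permutation p can be under 0.33. Most tRNA and mRNA members rest on few sequences per library.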
